A study of Mus musculus with 72 samples.

Results

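Livers of female SAMP1 mice after 14 months of feeding were compared with livers after 6 months, over 3 diets. The samples were 18 of the 72 arrays of the series: 9 livers at 14 months and 9 at 6 months, with 3 mice for each diet and duration. SAMP1 is the senescence accelerated mouse prone 1 strain, and all mice, controls included, carried this background and entered the study at 4 weeks of age. They received a control diet, the oxidised form of coenzyme Q10 (Q10) or its reduced form (QH2), and the labels give an intake of 500 mg per kg body weight a day for either compound. The mice were 7 months old at the earlier time and 15 months old at the later time. The strain ages fast as a whole animal and is 1 inbred line, no normally ageing strain was among these samples, and mice were caged in groups of 3 to 6 that stayed together. The labels give no hybridisation date, so duration and array batch cannot be told apart. The diet was a term in the fit of all 18 arrays, and each change is given within each diet as well.

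The liver makes most plasma proteins, clears drugs and hormones, and sets the body's cholesterol and bile acid balance. Its hepatocytes do most of this work, beside resident macrophages (Kupffer cells), sinusoidal endothelial cells, stellate cells and passing lymphocytes. In ageing mouse liver, immune cells commonly gather and inflammatory plasma proteins commonly rise, while the SAMP1 strain is known for a shortened life span and for senile amyloid built from apolipoprotein A-II. Coenzyme Q carries electrons in the mitochondrial respiratory chain and is an antioxidant in its reduced form.

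The tissue label was checked against 11 hepatocyte markers, whose summed signal lay between 59019 and 77931 on all arrays, with albumin (Alb) at a mean of 11093 at 6 months and 11188 at 14 months. The 45101 probe sets of the array were read as linear signals, whose mean per array ran from 84.59 to 169.4 at 6 months and from 104.9 to 171.9 at 14 months. Arrays were therefore quantile normalised, and all signals below are on that scale. Probes near the 3' and 5' ends of the pyruvate carboxylase transcript gave a 3' to 5' ratio, a sign of RNA or labelling quality, of 17.1 to 33.7 at 6 months and 24.3 to 58.2 at 14 months. Within the control diet it was 17.1 to 22.4 against 32.4 to 57.1, within QH2 20.1 to 31 against 45.5 to 58.2, and within Q10 17.2 to 33.7 against 24.3 to 40.7. The ratio thus moved with duration, without overlap on the control diet and on QH2. The Gapdh ratio was 0.959 to 1.36 against 0.965 to 1.92 over all diets. It too was without overlap on the control diet (0.959 to 1.19 against 1.24 to 1.52) and on QH2 (0.98 to 1.36 against 1.39 to 1.92). On Q10 it overlapped (1.01 to 1.12 against 0.965 to 1.31). The Actb ratio was higher at 14 months on the control diet (2.86 to 3 against 3.49 to 4.11). It was lower on Q10 (3.1 to 3.75 against 1.59 to 3.05) and overlapped on QH2. Q10 arrays 2 and 3 at 14 months stood apart on the first principal component (23.1% of the variance), at 128.65 and 99.03 against -71.91 to 31.85 for the other arrays, and had Actb ratios of 1.59 and 1.98 against 2.86 to 7.36. The Q10 arrays at 6 months lay at -15.69 to -3.41 on that component. The control (-71.91 to -34.81) and QH2 (-64.31 to -34.05) arrays of that time all lay lower. Each change on Q10, and each difference from Q10, is read against these 6-month Q10 arrays. Many results in which Q10 arrays 2 and 3 at 14 months stand out are given without that pair or without all 6 Q10 arrays. For some genes the range of the change over 14 alternative settings, these fits among them, is given instead. Without the pair the Q10 group at 14 months has 1 array, which is assumed to vary like the other groups, so a lower count of calls does not by itself show a smaller change.

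At the adjusted p threshold of 0.05 (limma, Benjamini-Hochberg), 4687 of 27022 probe sets tested differed between durations on average over the diets (17.3%), 2477 higher (9.17%) and 2210 lower (8.18%) at 14 months. Of these calls 52.8% were higher. On the values as deposited, where the median of all probe sets rose by 0.20 on the log2 scale, 2221 were called and 92.6% of them were higher, so directions here are relative to the quantile scale. With the pyruvate carboxylase ratio as a covariate 737 were called, and 566 of these were among the 4687. This ratio moved with duration, so the covariate and duration compete in that fit and the errors widen. Here and below, calls lost with it cannot show whether a change went with RNA quality or with duration. Within the control diet 1988 were called (7.36%), 1483 higher (5.49%) and 505 lower (1.87%). Within Q10 there were 3370 (12.5%), 1588 higher (5.88%) and 1782 lower (6.59%), but 165 without Q10 arrays 2 and 3 (1 array left at 14 months), and 0 when limma was fitted to the 6 Q10 arrays only (5362 at an unadjusted p under 0.05). Within QH2 there were 634 (2.35%), 439 higher (1.62%) and 195 lower (0.722%), and with the pyruvate carboxylase ratio as a covariate limma called 0 (1506 at an unadjusted p under 0.05). Leaving out QH2 array 1 at 14 months gave 130 calls. The control and QH2 calls shared 402 probe sets of the same direction, 20.2% of the control calls and 63.4% of the QH2 calls. Control and Q10 shared 368, which were 18.5% of the control calls and 10.9% of the Q10 calls. Across the 27022 probe sets, which are not independent, the log2 change on the control diet correlated with that on QH2 at r = 0.51 and with that on Q10 at r = 0.22.

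The strictest set held the probe sets called on average whose 3 arrays at 14 months all lay on the same side of the 3 at 6 months in each of the 3 diets. It had 866 members (3.2%), 364 higher (1.35%) and 502 lower (1.86%). Called or not, 871 probe sets were without overlap in all 3 diets (3.22%), 365 higher (1.35%) and 506 lower (1.87%). Only 38 probe sets were called higher and 49 lower within all 3 diets taken one by one. The genes named below come mainly from this strict set and from gene lists, where a gene stands by its brightest tested probe set. Over all 12775 genes so represented, 5.57% were called higher and 8.08% lower, and the median log2 change was -0.05. Without the 6 Q10 arrays 4382 of the 27022 probe sets were called on average, and that median was -0.04. The list counts below are to be read beside these shares.

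Immunoglobulin transcripts gave the greatest average rises among the genes named. Ighm, the heavy chain of IgM made by B cells and plasma cells, had a lowest, median and highest signal of 21.7, 50.1 and 89.3 at 6 months and 131, 331 and 8718 at 14 months. All 9 older livers lay above all 9 younger ones, and the highest 3 values came from 2 Q10 livers (2720 and 8718) and 1 control liver (384). The log2 change was 3.08 ± 0.57 (SE, adjusted p = 0.00135, limma), and 1.89 without the 6 Q10 arrays (adjusted p = 0.000154). A second Ighm probe set rose by 2.78 ± 0.59 on the log2 scale, and 2 of the 6 other tested Ighm probe sets were called. Igkv8-30, a kappa light chain variable segment, went from 14.3, 44.8 and 66.5 to 109, 331 and 8010, again with no overlap, a log2 change of 3.51 ± 0.53 (adjusted p = 0.000261, limma). Its highest values were from Q10 arrays 2 and 3 (3847 and 8010), and its change ran from 2.51 to 5.28 over 14 alternative settings. The Igkv8-30 and first Ighm probe sets carry suffixes (_x_at and _s_at) that mark cross-reading of related sequences, so the member of the family is uncertain. Both calls held in every alternative fit tried and with each array left out in turn.

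Of 12 B and plasma cell markers tested 6 were higher and none lower, and without the 6 Q10 arrays 3 were higher. The B cell receptor subunit Cd79b read 16.5, 19.9 and 7.64 on the control diet at 6 months and 19.8, 13.3 and 24.7 at 14 months, which overlap. On QH2 it read 22.5, 14.1 and 7.4 against 31.9, 30 and 28.6, without overlap. On Q10 it read 34.8, 17 and 15.6 against 69.6, 826 and 221. Its average log2 change was 1.65 ± 0.44 (adjusted p = 0.0152, limma), and 0.77 ± 0.31 without the 6 Q10 arrays, where it was not called (adjusted p = 0.102). The plasma cell chaperone Mzb1 rose by 1.48 ± 0.45 on the log2 scale, with 12.1 to 32.3 at 6 months and 25.1 to 535 at 14 months, and its adjusted p was 0.0552 without Q10 array 1 at 6 months (limma). Without the 6 Q10 arrays the change of Mzb1 was 0.61 ± 0.24, not called (adjusted p = 0.0938, limma). The summed signal of the 12 markers was 291.6 to 344.1 against 416.5 to 830 on the control diet, 209.1 to 381.5 against 779 to 11208 on Q10 and 190.3 to 327.2 against 391.3 to 558.7 on QH2. The sum was thus higher in the older livers of each diet, by far the most in 2 of the Q10 livers. Ighm is 1 of the 12 and had the highest mean (54.9 at 6 months, 1458 at 14 months). Taken one by one, 1 marker was called higher on the control diet, 9 on Q10 and 0 on QH2 (medians 0.57, 3.32 and 0.66). The difference between Q10 and control was called for 3. In whole tissue, more cells of a type and more RNA per cell cannot be told apart.

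A list of 24 tested genes held acute-phase proteins, which hepatocytes release in inflammation, and related genes such as Stat3, Il6ra and Apoa2. In it 6 were higher, Stat3 and Il6ra among them, and 1 was lower, with a median log2 change of 0.09. Without the 6 Q10 arrays 4 were higher and 1 lower. Lcn2, an iron-binding defence protein, was at 84.7, 86.2 and 174 on the control diet at 6 months and at 440, 283 and 331 at 14 months. On Q10 it was at 251, 267 and 65.1 against 366, 2187 and 971, and on QH2 at 73, 78.3 and 101 against 648, 156 and 208. The durations did not overlap in any diet, and the log2 change was 1.95 ± 0.34 (adjusted p = 0.000821, limma). Stat3, the transcription factor that carries interleukin-6 signals, went from 516, 687 and 998 (lowest, median, highest) to 939, 1241 and 1634, a log2 change of 0.82 ± 0.12 (adjusted p = 0.000254, limma). Its brightest other probe set rose by 0.26 ± 0.08, and 2 of 3 others were called. Haptoglobin (Hp) and ceruloplasmin (Cp), which bind haemoglobin and copper, each rose by 0.39 on the log2 scale (SE 0.09 and 0.08). C-reactive protein (Crp) fell by 0.28 ± 0.08. The serum amyloid genes Saa1 (-0.46 ± 0.504) and Saa2 (-0.33 ± 0.484) did not pass. Apoa2, the amyloid apolipoprotein of this strain, stayed near the top of the scale, at 11282 to 13336 at 6 months and 11987 to 12838 at 14 months (log2 change 0.02 ± 0.06). With the pyruvate carboxylase ratio as a covariate 2 members were called higher and none lower, and Lcn2 had a log2 change of 1.82 ± 0.54 with an adjusted p of 0.0662 (limma).

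The promoters of Lcn2 and Cp are shown because both genes rose and both windows hold the letters TTNNGCAA, the core recognised by C/EBP factors of the acute-phase response. The capitals mark the match, on the minus strand of the window for Lcn2 and on the plus strand for Cp, and each window runs 250 bases before to 50 after a transcript start, read 5′ to 3′ along the gene (RefSeq, GRCm38.p6, Lcn2 at chr2:32387690-32387989 on the minus strand, Cp at chr3:19956999-19957298 on the plus strand).
Lcn2: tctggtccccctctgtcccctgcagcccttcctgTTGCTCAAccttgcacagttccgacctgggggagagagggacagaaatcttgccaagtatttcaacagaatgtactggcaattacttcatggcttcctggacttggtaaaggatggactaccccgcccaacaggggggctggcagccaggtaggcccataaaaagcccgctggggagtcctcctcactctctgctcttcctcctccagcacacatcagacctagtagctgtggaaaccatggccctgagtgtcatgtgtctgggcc
Cp: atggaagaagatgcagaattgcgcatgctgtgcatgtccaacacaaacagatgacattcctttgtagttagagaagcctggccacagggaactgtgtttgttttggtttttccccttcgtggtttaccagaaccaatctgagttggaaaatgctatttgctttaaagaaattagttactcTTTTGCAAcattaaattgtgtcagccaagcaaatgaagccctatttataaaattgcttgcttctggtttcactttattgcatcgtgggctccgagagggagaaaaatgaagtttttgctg
Of the 24 listed acute-phase genes 22 had a promoter in the table, and 14 of these (63.6%) held TTNNGCAA on either strand, against 12.2% of all 27025 genes and 10.8% of all 32851 promoters. The STAT letters TTCNNNGAA were in 6 (27.3%) against 9.55% of genes, and the E-box CACGTG in 1 (4.55%) against 8.09%. All 3 motifs were searched on both strands, the one marked was chosen after the counts were seen, and matches of different motifs may overlap. A match is a description of the letters and not a bound site. Genes with TTNNGCAA included Lcn2, Cp and Hpx, which were called, and Saa1 and Saa2, which did not pass. Stat3, Crp and Il6ra, also called, were not among the 14. Related genes such as Saa1 to Saa4 were counted one by one.

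**Figure D1:**
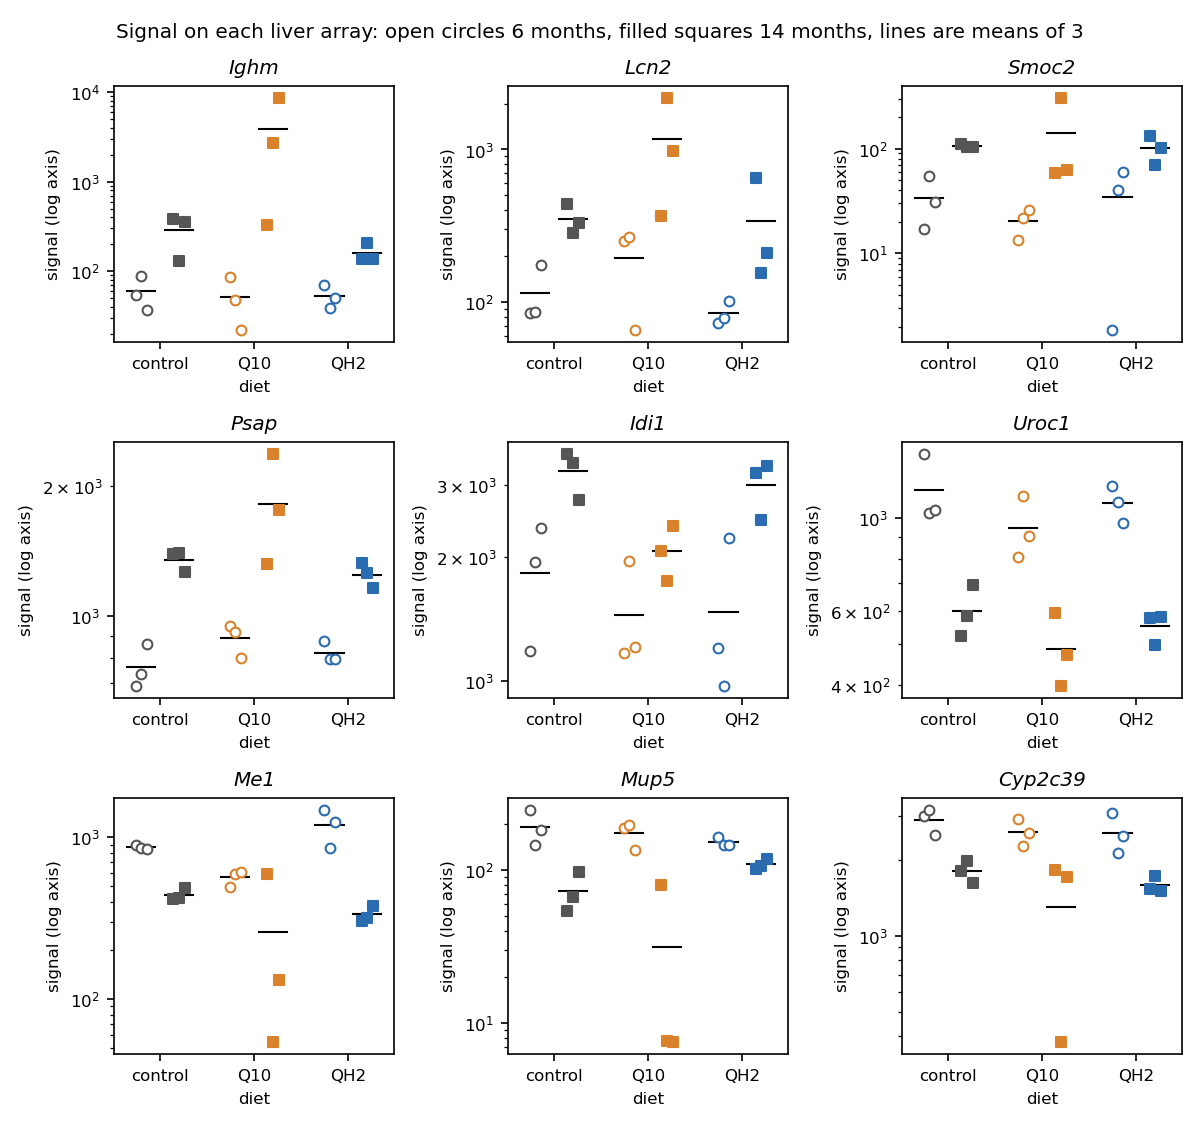
Quantile-normalised signal (log axes) of 9 genes on each liver array by diet, with open circles for 6 months, filled squares for 14 months and lines for means of 3 arrays. All Ighm squares lie above all Ighm circles, all Uroc1 squares lie below all Uroc1 circles, and Q10 squares spread widest for Ighm, Mup5 and Cyp2c39.

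Genes for which every tested probe set was called the same way were picked by that rule after values had been seen. There were 43 such genes with higher and 88 with lower signal among 5762 genes with more than 1 tested probe set. Prosaposin (Psap), the precursor of lysosomal sphingolipid activators, went from 688, 802 and 950 to 1160, 1327 and 2372, with no overlap between durations (0.81 ± 0.10, adjusted p = 4.28e-05, limma). Its change was 0.83 on the control diet, 0.99 on Q10 and 0.60 on QH2, and its other probe set rose by 0.50 ± 0.14. Smoc2, a secreted matrix protein, went from 1.84, 26.1 and 60.4 to 58, 103 and 307 (2.14 ± 0.45, adjusted p = 0.00331, limma). Within each diet its durations were apart (17.1, 54.4 and 30.8 against 110, 104 and 103 on the control diet), and the other probe set rose by 2.12 ± 0.50. Smoc2 was not called with the pyruvate carboxylase covariate (adjusted p = 0.18, limma). Kcnq1ot1, a nuclear non-coding RNA from an imprinted locus, rose by 1.68 ± 0.19 on the log2 scale, and both its other probe sets were called higher. The autophagy protease Atg4c (0.74 ± 0.14) and the vesicle protein Syngr2 (0.60 ± 0.09) were also higher.

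Urocanase (Uroc1), which breaks down histidine, fell by a like amount in each diet. It read 1426, 1031 and 1044 against 524, 583 and 694 on the control diet, 810, 1130 and 905 against 595, 397 and 472 on Q10, and 1194, 1092 and 972 against 578, 498 and 580 on QH2. No older liver reached any younger one, and the log2 change was -0.95, -0.96 and -0.97 in the 3 diets (average -0.96 ± 0.10, adjusted p = 7.31e-06, limma). Its second probe set gave -0.97 ± 0.24. Ghitm, a mitochondrial inner membrane protein, fell from 912 to 1105 at 6 months to 548 to 789 at 14 months, by 0.60 ± 0.08 on the log2 scale. The carnitine synthesis enzyme Bbox1 fell by 0.57 ± 0.15. Psap and Uroc1 kept their calls in every alternative fit and with each array left out.

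Enzymes that clear drugs and hormones were read in 2 lists, in which most members did not pass and those that did were lower on average. Of 23 conjugating enzymes tested 10 were lower and none higher, with a median log2 change of -0.43. Of 24 drug metabolising cytochromes P450 7 were lower and none higher, with a median of -0.33. Within QH2 limma called 0 members of either list, with medians of -0.22 and 0. Without the 6 Q10 arrays 9 conjugating enzymes and 7 cytochromes were lower, 1 cytochrome was higher, and the medians were -0.28 and -0.13. The sulfotransferase Sult1a1 fell from 3773, 4641 and 6006 to 2952, 3423 and 3748, without overlap (-0.49 ± 0.08, adjusted p = 0.00057, limma). Sult1d1 (-0.58 ± 0.12), the glucuronosyltransferase Ugt2b1 (-0.63 ± 0.19) and the glutathione transferase Gstm6 (-0.59 ± 0.11) were lower too. Cyp2c70, a bile acid hydroxylase, read 6764, 8090 and 7674 against 5217, 4345 and 5271 on the control diet, 5850, 5800 and 6514 against 5665, 3954 and 3566 on Q10, and 6391, 6391 and 6920 against 5178, 5217 and 5197 on QH2. Its durations did not overlap over all 18 livers (-0.48 ± 0.09, adjusted p = 0.00116, limma). Cyp2c39 fell from 2137 to 3176 at 6 months to 377 to 1990 at 14 months (-0.88 ± 0.22), and the lowest value was from Q10 array 2. Over 14 alternative settings its log2 change ran from -1.11 to -0.61. Cyp2b10, a target of the xenobiotic receptor CAR, fell by 1.61 ± 0.39 on average and by 1.01 without the 6 Q10 arrays, and both its other probe sets were called lower. With the pyruvate carboxylase ratio as a covariate 1 conjugating enzyme and 2 cytochromes were called lower, and with the deposited values as they stand 2 and 3 were. These families hold near-identical genes, and a probe set may read more than 1 of them.

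Mup5 and Mup3 are major urinary proteins, pheromone carriers of hepatocytes under growth hormone and sex hormone control, and both were lower. Mup5 read 249, 147 and 182 against 53.8, 67 and 97.5 on the control diet, 189, 197 and 136 against 79.5, 7.65 and 7.45 on Q10, and 166, 146 and 146 against 102, 107 and 119 on QH2. No older liver reached a younger one, the log2 change was -1.71 ± 0.40 (adjusted p = 0.00631, limma), and it was -0.94 without the 6 Q10 arrays. Mup3 fell by 1.95 ± 0.50 on the log2 scale, and its change ran from -3.27 to -1.14 over 14 alternative settings. The Mup3 probe set carries the suffix _x_at, so related Mup genes may be read with it. Of 9 sex-biased liver genes tested 4 were lower and none higher, and 5 were lower without the 6 Q10 arrays. Among 11 genes of the growth hormone axis 3 were higher: the binding proteins Igfbp2 (0.70 ± 0.18) and Igfbp3 (0.62 ± 0.17), and the feedback inhibitor Socs2 (0.81 ± 0.19). Igf1 itself read 3006 to 3906 at 6 months and 2160 to 3615 at 14 months and did not pass (-0.22 ± 0.09, adjusted p = 0.106, limma).

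Lipid genes moved in both directions. Of 18 cholesterol synthesis genes tested 3 were higher and none lower on average, and 8 were higher and none lower without the 6 Q10 arrays, with medians of 0.22 and 0.40. The list's median was 0.32 on the control diet and 0.48 on QH2 but -0.27 on Q10. Idi1, which makes the isoprenoid building block, read 1182, 1944 and 2349 against 3566, 3392 and 2747 on the control diet, 1167, 1960 and 1206 against 2071, 1749 and 2372 on Q10, and 1204, 969 and 2228 against 3193, 2465 and 3325 on QH2. The durations were apart on the control diet and on QH2 and overlapped on Q10 (average 0.84 ± 0.16, adjusted p = 0.00191, limma). Dhcr7, the last enzyme of the pathway, rose by 0.57 ± 0.12. Insig2, which holds back sterol synthesis, fell from 397, 487 and 696 to 193, 292 and 461 (-0.83 ± 0.16, adjusted p = 0.00194, limma), and its brightest other probe set fell by 0.55 ± 0.13. With the pyruvate carboxylase covariate no cholesterol gene was called higher and 1 was lower (median -0.23).

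Malic enzyme (Me1), which supplies NADPH for fatty acid synthesis, read 900, 851 and 850 against 413, 418 and 487 on the control diet and 1479, 862 and 1234 against 305, 318 and 376 on QH2. On Q10 it read 495, 593 and 610 against 588, 53.8 and 131, where the durations overlapped. The average log2 change was -1.53 ± 0.29 (adjusted p = 0.00144, limma) and the second probe set gave -1.26 ± 0.34. It was 1 of 2 lower members among 16 fatty acid synthesis genes. In the bile acid list 2 of 19 genes were higher and 2 lower, beside 5.57% and 8.08% over all genes. The canalicular export pump Abcc2 rose by 0.88 ± 0.20, and the bile salt pump Abcb11 fell by 0.58 ± 0.17. The steroid reductase Akr1d1 fell without overlap (721 to 1228 against 279 to 670), but its other probe set gave 0.24 ± 0.16. Cyp7a1, the rate-limiting enzyme of bile acid synthesis, did not pass (-0.16 ± 0.21, adjusted p = 0.633, limma), and its log2 change was 0.16 without the 6 Q10 arrays.

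Of 23 fatty acid oxidation genes 4 were lower and 1 higher, and of 16 genes of glucose metabolism 5 were lower and none higher. On the values as deposited limma called 0 in either list (6 and 3 at an unadjusted p under 0.05), and with the pyruvate carboxylase ratio as a covariate 0 and 1 (6 and 5 unadjusted). The peroxisomal enzyme Ehhadh fell by 0.49 ± 0.12, the hepatic glucose transporter Slc2a2 by 0.32 ± 0.08 and the transcription factor Foxo3 by 0.59 ± 0.13. Of 32 complex I subunits 7 were lower and 2 higher, and without the 6 Q10 arrays 3 were lower and 4 higher. On the values as deposited limma called 0 of the 32 (3 at an unadjusted p under 0.05), and with the pyruvate carboxylase ratio 2 were lower. Ndufs5 read 1026 to 1495 at 6 months and 565 to 975 at 14 months, without overlap (-0.49 ± 0.10), whereas Ndufs8 rose by 0.53 ± 0.13 and its brightest other probe set gave -0.09 and 1 of 5 others was called lower. Of 12 coenzyme Q synthesis genes 2 were lower, and none without the 6 Q10 arrays. Coq8a, a kinase-like protein of that pathway, had a log2 change of -0.61 ± 0.19. It was called in 9 of 18 fits with 1 array left out (adjusted p = 0.0705 without Q10 array 1 at 6 months, limma). Of 14 iron genes 2 were higher and 2 lower. Bmp6, the endothelial signal that induces hepcidin, fell by 0.91 ± 0.20 and its target Id1 by 1.05 ± 0.21, from 81.4, 118 and 209 to 28.9, 66.2 and 97.9.

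**Figure D2:**
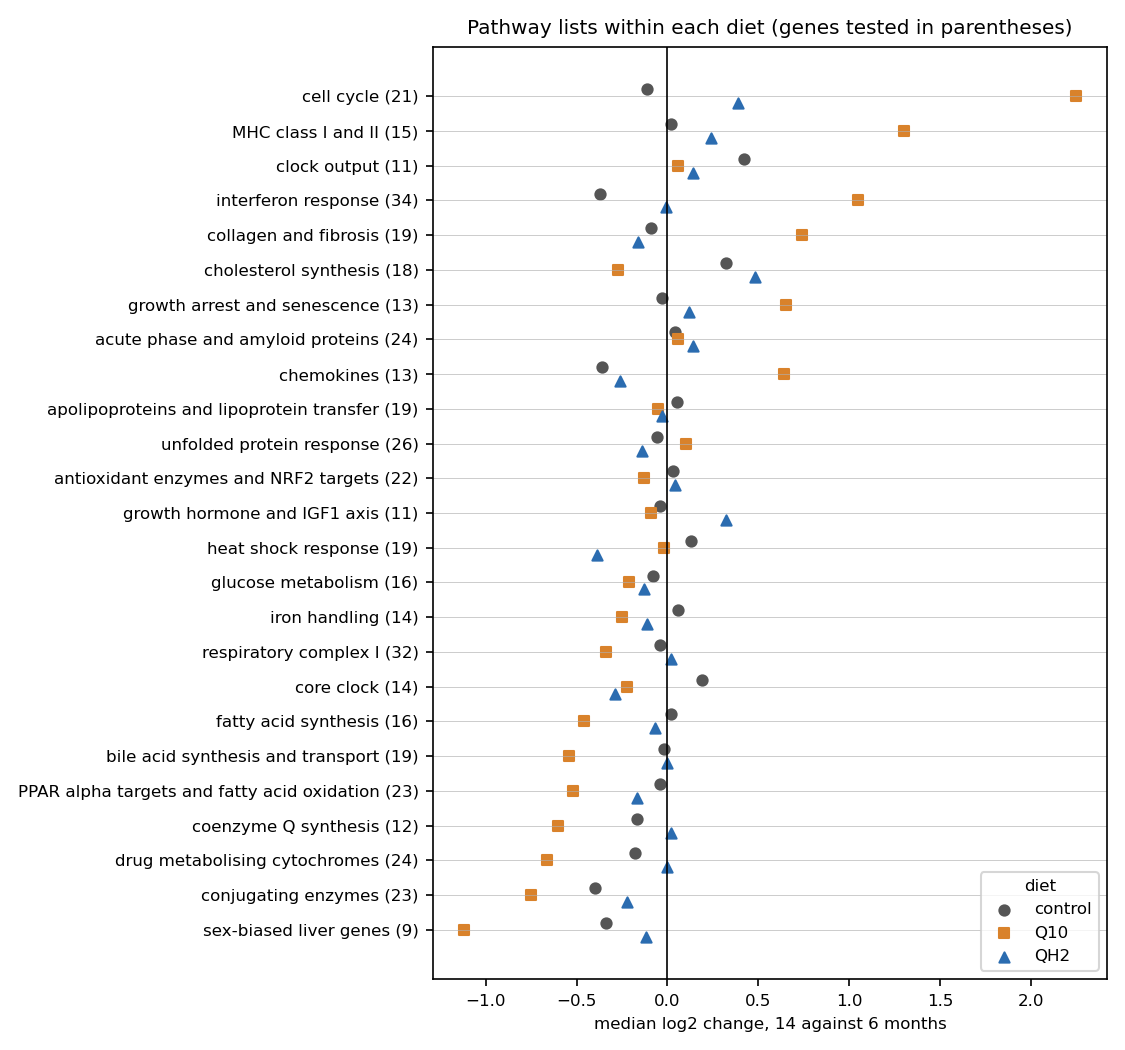
Median log2 change, 14 against 6 months, of 25 pathway lists within control (circles), Q10 (squares) and QH2 (triangles), with the number of genes tested in parentheses. Q10 squares lie farthest from 0 for most lists, at 2.25 for the cell cycle and -1.12 for sex-biased genes, and the conjugating enzymes lie below 0 in all 3 diets.

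Of 26 unfolded protein response genes of the endoplasmic reticulum 2 were higher and 3 lower, with a median log2 change of -0.01, shares near those over all genes. Sel1l, an adaptor of the complex that returns misfolded proteins to the cytosol, went from 239, 275 and 311 to 327, 437 and 449, without overlap (0.58 ± 0.08, adjusted p = 0.000137, limma). Syvn1, the ubiquitin ligase that works with Sel1l, rose by 0.57 ± 0.15. The disulfide isomerase Pdia3 read 1951, 1912 and 1976 against 1126, 905 and 1186 on the control diet, 1817, 1525 and 1916 against 1234, 1453 and 1507 on Q10, and 1894, 1260 and 1954 against 835, 928 and 977 on QH2. It was lower in each diet without overlap (-0.69 ± 0.11, adjusted p = 0.000331, limma). The chaperone Hyou1 (-0.44 ± 0.12) and the secreted stress factor Manf (-0.52 ± 0.15) fell too. A dimmer Sel1l probe set gave -0.28 ± 0.10. On the values as deposited 1 of the 26 genes was higher and 1 lower, and Hyou1 was not called (adjusted p = 0.395, limma). With the pyruvate carboxylase ratio as a covariate 1 was higher and 0 lower, and Manf was not called (adjusted p = 0.652, limma). Of 19 heat shock genes 2 were lower, a share near the 8.08% over all genes. They were the mitochondrial chaperonin Hspd1 (-0.35 ± 0.08) and its partner Hspe1 (-0.40 ± 0.09). Within QH2 alone 5 of the 19 were lower. The difference of QH2 from control was called for 0 of the 19 and that of QH2 from Q10 for 4. For the average over diets limma called 0 of the 19 on the values as deposited (0 at an unadjusted p under 0.05). With the pyruvate carboxylase ratio as a covariate it called 0 (3 unadjusted).

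Core clock transcripts cycle over the day, and the labels give no sampling hour. Of 14 core clock genes 3 were lower and none higher on average. On the values as deposited limma called 0 (2 at an unadjusted p under 0.05), and with the pyruvate carboxylase ratio as a covariate 0 (0 unadjusted). The repressor Nr1d2 fell by 0.39 ± 0.11 and Bhlhe40 by 0.38 ± 0.09, with adjusted p-values of 0.437 and 0.489 on the values as deposited (limma). Dbp, a clock output factor, read 561, 1162 and 1634 at 6 months and 190, 800 and 959 at 14 months (-0.71 ± 0.24, adjusted p = 0.0496, limma) and was called in 4 of 18 fits with 1 array left out (adjusted p = 0.0956 without Q10 array 1 at 6 months). Per1 (-0.19 ± 0.18), Per2 (0.27 ± 0.20), Arntl (0.62 ± 0.45) and Nr1d1 (-0.74 ± 0.42) did not pass. The brightest Per3 probe set did not pass on average (0.27 ± 0.19) but was called on the control diet, at 94.4, 84.8 and 75.5 against 185, 166 and 161. A dimmer Per3 probe set was called higher on average. With 1 array left out it kept its call in all 18 fits (log2 change 1.89 to 2.49). It was not called with the pyruvate carboxylase covariate (adjusted p = 0.372, limma). With the deposited values Per1 had a log2 change of 0.05.

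Of 13 growth arrest and senescence genes tested 3 were higher and none lower, but without the 6 Q10 arrays 0 were higher and 1 lower by the same probe sets. The stress protein Sesn2 (1.25 ± 0.37) and the antiproliferative factor Btg2 (0.79 ± 0.24) then had log2 changes of 0.85 and 0.34 and were not called (adjusted p = 0.119 and 0.224, limma). Cdkn1a, the cyclin kinase inhibitor p21, read 5.41, 4.17 and 19.2 against 24.4, 12.2 and 37.2 on the control diet, 8.25, 16.5 and 3.81 against 25.7, 99 and 20.5 on Q10, and 16.6, 3.59 and 14.3 against 102, 31.2 and 7.13 on QH2. The durations were apart only on Q10, the signals were dim, and the log2 change was 1.66 ± 0.46 (adjusted p = 0.0179, limma). It was 1.45 without the 6 Q10 arrays, with an adjusted p of 0.0783 (limma). Of 21 cell cycle genes 4 were higher and none lower, against 2 higher and 1 lower without the 6 Q10 arrays. The replication helicase subunit Mcm6 read 5.96, 9.1 and 26.1 at 6 months and 11.8, 40.7 and 399 at 14 months (2.29 ± 0.45), and its other probe set rose by 2.01. Over 14 alternative settings the change of the first ran from 1.5 to 2.85.

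The probe sets that stand for the genes of greatest change in the strict set were mostly not matched by other probe sets of the same gene. Of the 15 lower genes with the greatest change 12 had another tested probe set, all 12 had a brighter one, and 11 of these brighter ones were not called lower. Rtn4, a membrane-shaping protein of the endoplasmic reticulum, is the clearest case. One probe set fell from 315, 421 and 491 to 68.9, 95.8 and 117, without overlap, by 2.12 ± 0.11 on the log2 scale (adjusted p = 7.51e-10, limma), while the brightest other, with a mean signal of 1474, gave -0.08 ± 0.09. Of its 4 other tested probe sets 0 were called lower and 1 was called higher (limma). The growth hormone receptor (Ghr) fell by 1.32 ± 0.15 by a probe set of mean signal 157.6 and gave -0.32 ± 0.13 by one of 2864. Prkd3, Met, Abca1 and Map1lc3a gave -2.03, -1.75, -1.57 and -1.40 by the named probe set and 0.02, -0.33, -0.05 and -0.09 by the brightest other. Of the 15 higher genes 12 had another probe set, and for 6 another was called higher. The xenobiotic receptor Nr1i2 gave 1.74 ± 0.17 and 0.17, and the splicing factor Rbm39 1.77 ± 0.18 and 0.05. Mpst, a sulfurtransferase with 1 tested probe set, rose from 14, 28.3 and 39.9 to 43, 118 and 150 (1.95 ± 0.24, adjusted p = 5.49e-05, limma). Over the strict set 602 named probe sets had another tested for the gene, and 275 of these (45.7%) had another called the same way, beside 1126 of 2927 (38.5%) over all probe sets called on average. Changes named from a single probe set therefore describe the sequence it reads, not the gene's whole output.

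**Figure D3:**
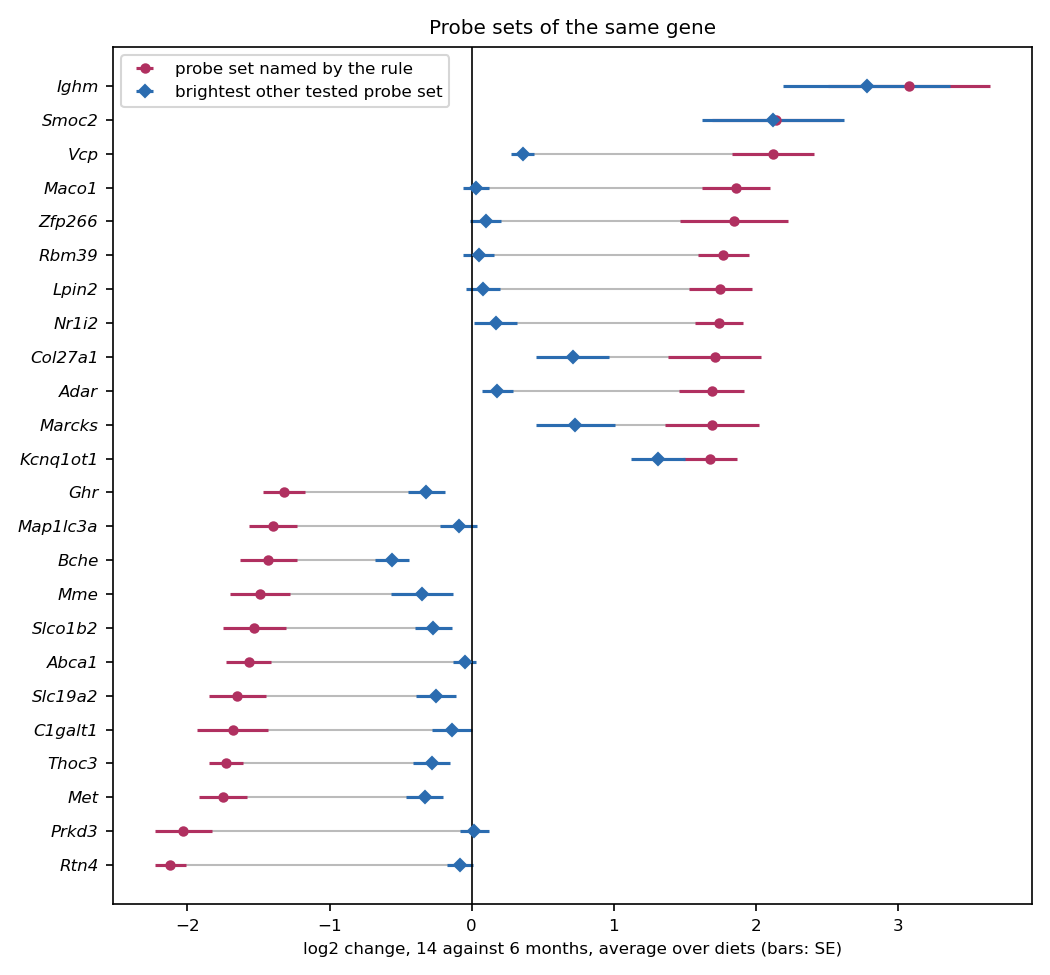
Log2 change, 14 against 6 months, average over diets, of the probe set named by the rule (circles) and of the brightest other tested probe set of that gene (diamonds), with SE bars, for the 24 genes that had both. The rule takes the genes of greatest change in the strict set, each by its probe set of smallest p in that set. For Rtn4 the values are -2.12 and -0.08, and for Ighm and Smoc2 they lie close together.

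The same probe sets were read in kidney, heart and brain of the same groups, where no label says whether organs came from the same mice. In kidney 83% of the 364 higher members that were testable (293 of 353) and 78.9% of the lower (381 of 483) were called in the same direction, beside kidney backgrounds of 18.9% higher and 20% lower (38.9% called in all). In heart it was 23.1% of the higher and 49.9% of the lower, beside 8.75% and 8.97% (17.7% in all). In brain 26.5% of the higher (background 28.4%) and 32.2% of the lower (27.7%) were called in the same direction, near the background (56.1% called in all), and 155 of 332 testable higher members fell. Rtn4 changed by -2.45 in kidney and -1.81 in heart by that probe set, and Ighm by 4.23 in kidney. Psap fell in kidney (-0.26, adjusted p = 0.0073, limma), and Smoc2 (-0.27, adjusted p = 0.123) and Mpst (-0.39, adjusted p = 0.0648) did not pass there (limma). The 4 organs were fitted separately, and whether the change differed between them was not tested.

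The differences called between diets all involved Q10. The difference between the Q10 and control changes was called for 630 probe sets (2.33%), 271 with the greater log2 change on Q10 (1%) and 359 with the greater on the control diet (1.33%), and 92 without Q10 arrays 2 and 3, when 1 array of that group is left. Between QH2 and Q10 it was called for 546 (2.02%), 270 greater on QH2 (0.999%) and 276 greater on Q10 (1.02%), and 51 without those arrays. Between QH2 and control limma called 0 (0%), 1621 had an unadjusted p under 0.05, and the typical 95% interval of a difference reached 0.98 to either side on the log2 scale. Of 20 Kupffer cell and macrophage markers 19 were higher with duration on Q10, 0 on the control diet and 0 on QH2, and the difference between Q10 and control was called for 16. Without Q10 arrays 2 and 3 limma called 0 within Q10 (15 at an unadjusted p under 0.05), and the median log2 change was 1.18 in place of 2.14. Their summed signal was 3337 to 6572 on Q10 at 6 months and 9941 to 31202 at 14 months, against 1575 to 3587 on the control diet and 2172 to 3528 on QH2 at 14 months. In interferon response 18 of 34 genes were higher on Q10 with duration, 3 were lower on the control diet, and the difference between Q10 and control was called for 12. Without Q10 arrays 2 and 3 these counts were 3 on Q10 and 1 for the difference, and the median on Q10 was 0.72 in place of 1.05. In the cell cycle 13 of 21 were higher on Q10, but the difference from control was called for 2, and without the pair limma called 0 on Q10 (2 at an unadjusted p under 0.05, median 0.56 in place of 2.25). Cxcl13, the chemokine that draws B cells into follicles, read 35.1, 32.2 and 22.7 against 103, 4421 and 5090 on Q10 and 16.7, 29.3 and 24.2 against 18.7, 7.54 and 22.5 on the control diet. Without the 6 Q10 arrays no macrophage marker was higher and 2 were lower.

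Markers of other cell types were read too. Of 13 endothelial markers 2 were lower, and the sinusoidal lectin Clec4g fell from 473, 548 and 596 to 271, 376 and 461, without overlap (-0.52 ± 0.11). Of 11 stellate cell markers 2 were lower, Lum (-0.60 ± 0.15) and Ecm1 (-0.51 ± 0.10), and 4 were lower without the 6 Q10 arrays. On the values as deposited limma called 0 endothelial and 0 stellate markers (2 and 1 at an unadjusted p under 0.05). With the pyruvate carboxylase ratio as a covariate 1 endothelial and 1 stellate marker were lower. Of 3 tested pancreatic acinar markers Cela1 was lower (-1.22 ± 0.23), while Cela3b had a mean signal of 18.5 at 6 months and 17.3 at 14 months. Of 10 neutrophil markers 1 was higher on average and 7 on Q10, with sums of 383.6 to 15434 on Q10 at 14 months against 133.1 to 724.4 on the control diet. The difference between Q10 and control was called by limma for 0 of these 10 (4 at an unadjusted p under 0.05), and without Q10 arrays 2 and 3 limma called 0 on Q10 (0 at an unadjusted p under 0.05, median log2 change 0.5 in place of 3.33). The part of such cells in the changes above was not tested.

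**Figure D4:**
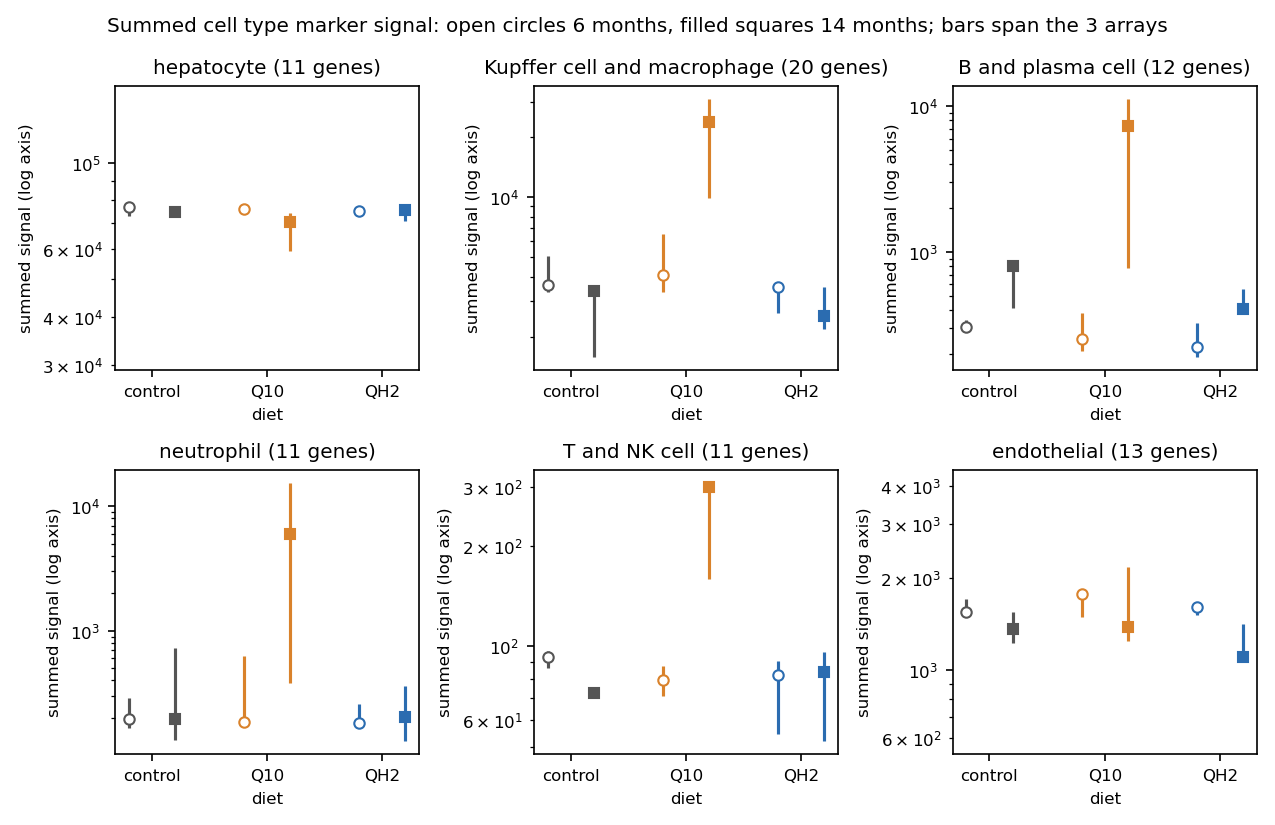
Summed signal (log axes) of 6 cell type marker lists by diet, with open circles for 6 months, filled squares for 14 months, the median of 3 arrays as the point and bars from the lowest to the highest. B and plasma cell sums are higher at 14 months in every diet, while macrophage sums are higher on Q10, at 9941 to 31202.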

How the data were processed

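Total RNA of liver was hybridised to 1-colour Affymetrix arrays, and the deposited values are linear signal intensity per probe set that the authors made with GCOS, per the submitters' processing notes (version not given in the sources used here). They were not equalised between arrays. The 64 control probe sets were removed, the 18 liver arrays were quantile normalised, an offset of 1 was added, values were put on the log2 scale, and the 27022 probe sets with a mean signal above the 40th percentile were tested. limma 3.58.1 (R 4.3.3, lmFit and eBayes with an intensity trend) fitted duration with diet as a covariate. Changes within a diet and differences between diets came from a fit of 6 group means. Adjusted p-values are Benjamini-Hochberg over all probe sets tested, with a threshold of 0.05, and apply to every limma p in the text. Folds are on the log2(signal + 1) scale and understate the change of dim probe sets. The number of arrays, 3 a group, limits the precision. The series' design gives 3 mice a group.

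Of the probe sets 34945 had 1 gene symbol in the platform annotation, 932 had several and 9160 none. Genes of lists stand by their brightest tested probe set with 1 symbol. Genes named for the greatest change stand by their probe set of smallest p in the strict set. Genes were named by rule: up to 15 in each direction with the greatest change among probe sets called on average, without overlap in all 3 diets and with a mean signal of at least 50, the called members of each list, the genes with the greatest differences between diets, a few clock and liver genes always named, and genes with all probe sets called the same way, a rule added after values were seen. The members and lists were chosen with earlier results of these data known. Scaling, offset, filters, a replicate block, array weights, RNA quality covariates and left-out arrays were tried as alternatives. The Gapdh and pyruvate carboxylase covariates and the fit without Q10 arrays 2 and 3 at 14 months were not planned in advance. The code was tested on simulated data. Some genes are not reported here.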

Additional observations from a re-analysis of the deposited data

Results flagged for a closer look

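The change with duration differed between diets, by the test of the difference itself, for 630 probe sets between Q10 and control and for 546 between QH2 and Q10. Among the genes named for the greatest differences, the rise on Q10 exceeded that on the control diet, on the log2 scale, by 6.04 ± 1.32 for Cxcl13 (SE, adjusted p = 0.0218, limma), 5.61 for the T cell chemokine Ccl5, 4.84 for the integrin adaptor Fermt3 and 4.78 for the B cell receptor subunit Cd79a. Ccl5 read 3.09, 12.6 and 13.6 at 6 months and 90.4, 295 and 356 at 14 months on Q10, and 16.7, 9.77 and 14 against 12, 2.17 and 6.01 on the control diet.

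Differences of the opposite sign between Q10 and control were -4.58 ± 0.79 for a dim Per3 probe set (adjusted p = 0.00538, limma), -4.02 for Msmo1, -3.72 for Esrrg and -3.68 for Car3. That Per3 probe set read 3.34, 0.639 and 6.44 against 99.4, 92.1 and 119 on the control diet, and 30.3, 38.3 and 54.1 against 73.1, 28 and 47.9 on Q10. Esrrg read 8.85, 1.88 and 9.03 against 66.4, 43.7 and 49.2 on the control diet, and 29.2, 35.3 and 14.7 against 16.5, 11.4 and 17.6 on Q10. At 6 months both probe sets were thus higher on all Q10 arrays than on all control arrays.

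Between QH2 and Q10 the difference was 4.53 for Mup10, 3.68 for Cald1, 3.21 for Gpt and 3.16 for the ketone body enzyme Aacs, with the greater rise or smaller fall on QH2. It was -6.2 for AF067061, -5.92 for the macrophage scavenger receptor Marco, -5.51 for Spic, a transcription factor of red pulp and Kupffer macrophages, and -5.45 for Cxcl13. Marco read 44.3, 18.8 and 14.8 against 75.8, 1237 and 1699 on Q10. Without Q10 arrays 2 and 3 at 14 months, which leaves 1 array in that group, these 16 differences kept their sign with adjusted p-values of 0.0534 to 0.456 (limma). The size stayed close for Cald1 (4.05), Msmo1 (-4.07), Gpt (3.11) and Esrrg (-3.58), and shrank for Cxcl13 (2.37 between Q10 and control, -1.78 between QH2 and Q10), Mup10 (1.59) and Marco (-3.1). What set these 2 livers apart was not tested.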

How the results depend on the processing

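Duration and array batch cannot be told apart, and 3 arrays a group limit every call within a diet. The 3' to 5' ratio moved with duration for pyruvate carboxylase and, on the control diet and QH2, for Gapdh. The average over diets was called for 4687 probe sets, 2221 on the values as deposited, 9327 with array weights and 737 with the pyruvate carboxylase ratio as a covariate. On the values as deposited the counts were 944 for the control diet (98.7% higher), 1036 for Q10 (95.8%), 40 for QH2 (87.5%), 30 and 39 for the differences of Q10 from control and of QH2 from Q10, and 255 without overlap in all diets (87.8% higher). With array weights, whose estimation stopped before convergence, they were 11408 for Q10, 1103 for QH2, and 5154, 4 and 5036 for the differences of Q10 from control, QH2 from control and QH2 from Q10. With the Actb ratio as a covariate they were 300 for Q10, 178 for QH2, and 1 and 1 for the differences of Q10 from control and QH2 from Q10. Without the intensity trend the 3 differences gave 329, 2 and 18. With the Gapdh ratio, which likewise competes with duration, the average gave 4878, of which 2960 were shared with the fit without it. The control diet then gave 1079, QH2 105 and the differences involving Q10 124 and 16. With the pyruvate carboxylase ratio the control diet gave 284, QH2 0 (1506 at an unadjusted p under 0.05, limma), those differences 106 and 3, and 269 were without overlap. Without Q10 arrays 2 and 3 at 14 months, with 1 array left there that is assumed to vary like the other groups, Q10 gave 165, the differences 92 and 51, and 1472 were without overlap, a rule that then asks less of Q10. Without the 6 Q10 arrays 2558 were without overlap, a rule that then asks for fewer diets. With only the 6 Q10 arrays 0 were called (5362 at an unadjusted p under 0.05, limma). The causes were not tested.

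With 1 array left out the average gave 3625 to 4986 and the set without overlap 883 to 1213. The control diet gave 1092 (without its array 3 at 14 months) to 2445, Q10 1297 (without its array 2 at 14 months) to 6148 (without its array 1 at 14 months), and QH2 130 (without its array 1 at 14 months) to 938. The difference of Q10 from control gave 198 (without control array 2 at 14 months) to 3218, QH2 from control 0 to 3, QH2 from Q10 33 (without QH2 array 3 at 14 months) to 3368, and the upper values within each diet and of both differences with Q10 came without Q10 array 1 at 14 months. Counts moved by over 1.5 times for the control diet without each of its 14-month arrays (1153, 1194 and 1092 without arrays 1, 2 and 3), for Q10 without any of its 6 arrays (1854, 2140 and 1872 at 6 months, 6148, 1297 and 1829 at 14 months), and for QH2 without its arrays 1 and 3 at 6 months (284 and 327) or any of its 3 arrays at 14 months (130, 268 and 351). The difference of Q10 from control moved so in 8 of 18 such fits and that of QH2 from Q10 in 13. With the replicate number as a block the average gave 4532, of which 4379 were shared with the fit without it. Deviations of arrays with the same number had a median correlation of 0 (-0.1 to 0.1), so no pairing by number was seen over all probe sets. A pairing that touches few genes would be missed by this check.

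Of the 155 named probe sets called on average, 128 kept the call in all 18 fits with 1 array left out. In these and in 14 other settings 32 kept it, 14 higher and 18 lower, among them Ighm, Psap, Stat3, Uroc1, Me1 and Mup5. Outside the fits with 1 array left out, directions of average changes given in the text turned for 3 genes that were not called: Apoa2 was -0.1 on the values as deposited and -0.25 with trimmed-mean scaling, Per1 0.05 on the values as deposited and 0.12 with the pyruvate carboxylase ratio, and Cyp7a1 0.16 without the 6 Q10 arrays and 0.02 without Q10 arrays 2 and 3 at 14 months.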

Other observations

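Antigen presentation genes were read as a list too. Of 15 genes of MHC class I and II and their loading machinery tested 3 were higher and none lower on average (median log2 change 0.51), 1 on the control diet (median 0.02), 10 on Q10 (1.3) and 0 on QH2 (0.24), and without the 6 Q10 arrays 1 was higher. The difference itself was called for 2 of 15 between Q10 and control and for 1 between QH2 and Q10, and without Q10 arrays 2 and 3 at 14 months 1 was higher on Q10 (median 0.95). The class I heavy chain H2-D1 read 1036, 1173 and 1984 against 2363, 2154 and 2315 on the control diet, 1224, 1769 and 1730 against 3415, 4044 and 3917 on Q10, and 1213, 1881 and 2061 against 2292, 2063 and 1927 on QH2. The durations were apart on the control diet and on Q10 and overlapped on QH2 (average 0.79 ± 0.15, adjusted p = 0.00165, limma), and its probe set carries the suffix _x_at, so related class I genes may be read with it. Tapbp, which loads peptides onto class I molecules, rose by 0.56 ± 0.13 on the log2 scale on average, with 1327, 1924 and 1249 at 14 months on Q10 against 542 to 784 there at 6 months. Over 14 alternative settings its average change ran from 0.27 to 0.66.

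The fatty acid desaturase family member Fads6 read 642, 561 and 512 against 1020, 951 and 1027 on the control diet, 464, 527 and 465 against 724, 786 and 569 on Q10, and 586, 603 and 525 against 736, 813 and 844 on QH2. No diet overlapped (0.60 ± 0.08, adjusted p = 0.000141, limma), and its other probe set rose by 0.78 ± 0.13. Bche, the plasma cholinesterase made by the liver, fell in all 3 of its probe sets, by 1.43 ± 0.20 in one that read 49.1 to 108 at 6 months and 17.4 to 45.3 at 14 months. With the pyruvate carboxylase ratio as a covariate the adjusted p was 0.051 for Fads6 and 0.0616 for that Bche probe set (limma). Pltp, the phospholipid transfer protein of plasma lipoproteins, rose by 1.14 ± 0.31 on average, by 2.70 ± 0.28 on Q10, and was not called without the 6 Q10 arrays (0.36, adjusted p = 0.282, limma).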
